A study of Mus musculus with 2 samples.

Results

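FOXO3, a forkhead transcription factor, and 9 antioxidant enzymes were examined in G1E-ER4 cells, an immortalized mouse erythroid line. The genes were Foxo3, the catalase gene Cat, the glutathione peroxidase genes Gpx1 and Gpx4, the peroxiredoxin genes Prdx1, Prdx2, Prdx3 and Prdx6, and the superoxide dismutase genes Sod1 and Sod2. They were taken by name, and all 10 were found among the 21461 nuclear protein-coding genes of the gene tables, with 44 of the 129984 entries of the transcript tables. G1E-ER4 cells lack their own Gata1 function and carry a restored GATA1 whose activity depends on estradiol. The series holds 1 group, male C57BL/6J G1E-ER4 cells given 10 nM 17beta-estradiol for 24 h, with 2 biological replicates sequenced as total RNA. There is no untreated group, so the values are levels in induced cells, without a contrast or a p-value. The line is a single immortalized line, and the gene tables give 1 value for Gata1 without separating the restored copy from the cells' own locus.

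A maturing red cell fills with hemoglobin, whose iron and bound oxygen release superoxide. Superoxide dismutases turn superoxide into hydrogen peroxide, and catalase, glutathione peroxidases and peroxiredoxins then remove the peroxide. FOXO3 is known in erythroid cells as an activator of antioxidant genes. It is held out of the nucleus when AKT kinases phosphorylate it, which ties it to erythropoietin and other growth factor signals.

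Expected counts are the authors' estimates of reads or fragments per gene. Replicate 1 held 50277914 of them and replicate 2 held 47478888, with 14373925 and 13901316 on nuclear protein-coding genes. TPM divides counts by transcript length and scales each library to a fixed total. Nuclear protein-coding genes took 22.7% and 22.9% of all TPM, and rescaling to these genes would raise the values below by 4.41 and 4.37 times. All 8 erythroid markers checked reached a TPM of 1 in both libraries, among them Hbb-bs, Gata1 and Klf1. Of 26 markers of other cell types 6 did so, 4 of megakaryocytes and 2 of mast cells, and 9 had no read. The summed TPM of 8 granulocyte and macrophage markers was 1.84 in replicate 1 and 5.12 in replicate 2, with Csf1r at 0 in both. Megakaryocyte markers summed to 31.8 and 24.25, with Pf4 at 18.96 and 10.54. Mast cell markers summed to 29.55 and 31 TPM, most of it from Cpa3 (26.71 and 28 TPM), which lay above Foxo3 in both libraries, with Mcpt8 at 0. T and B cell markers summed to 0.13 and 0.14, with 3 of 4 at 0, and fibroblast and endothelial markers to 0.13 and 0, with 4 of 5 at 0. The part of such cells in the levels below was not tested.

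Both glutathione peroxidases are selenoproteins: an in-frame UGA, a stop signal elsewhere, is read as selenocysteine at the active site. These stretches of their leading transcripts are shown because whether a transcript's coding sequence holds this codon separates the Gpx1 transcripts described further on. The sequences are from GENCODE M21 on GRCm38, plus strand, with the TGA of the DNA in capitals. The Gpx1-201 stretch covers chr9:108339421-108339483 with the TGA as codon 47, and the Gpx4-202 stretch chr10:80054707-80054769 with the TGA as codon 73.
Gpx1-201: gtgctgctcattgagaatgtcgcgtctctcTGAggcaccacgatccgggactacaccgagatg
Gpx4-202: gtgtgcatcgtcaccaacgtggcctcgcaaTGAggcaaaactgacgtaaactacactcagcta

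All 10 genes reached a TPM of 1 or more in both libraries, a level that 40.2% of the nuclear protein-coding genes reached. Their median TPM was 78.9 in replicate 1 and 77.5 in replicate 2. Over the nuclear protein-coding genes that reached a TPM of 1 in both libraries, the median was 9.64 and 9.88. In order of mean TPM the genes were Gpx1, Prdx3, Prdx6, Sod1, Cat, Prdx2, Prdx1, Gpx4, Foxo3 and Sod2. Of the 9 pairs of neighbours in this order, 7 had library values that did not overlap. The exceptions were Prdx6 with Sod1 and Prdx1 with Gpx4, whose library values overlapped and whose order is therefore not resolved. With 2 libraries, values that do not overlap do not settle the order of the other pairs either. The order also depends on the division by length. By expected counts Foxo3 (4503 and 4180) lay above Sod1 (1756.81 and 1836.41).

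**Figure D1:**
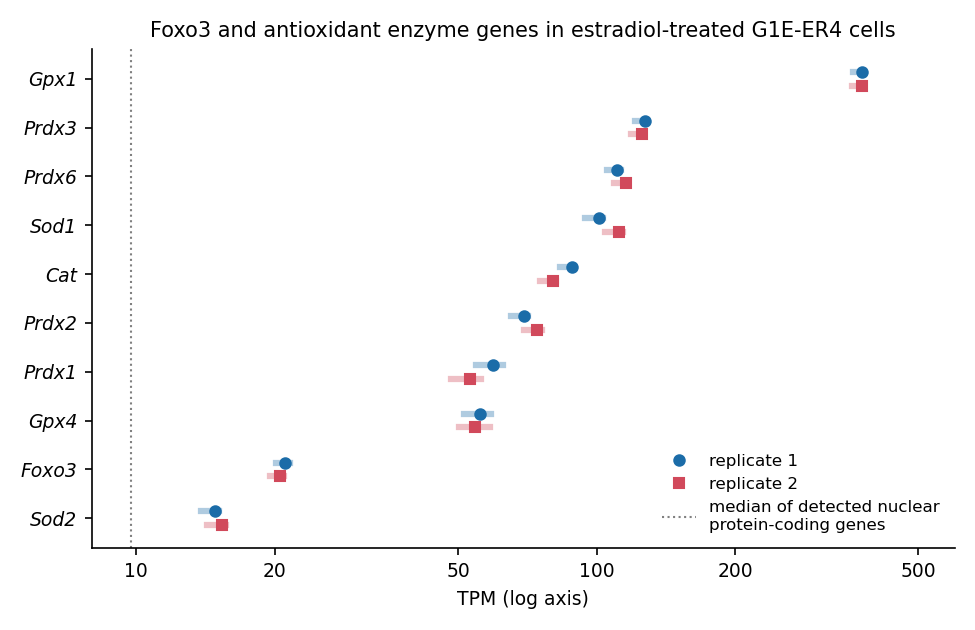
TPM of each gene in both libraries on a log axis, with replicate 1 as circles and replicate 2 as squares. Pale bars are the deposited credibility intervals, which belong to the posterior mean and therefore lie slightly below many points, and the dotted line marks the median of detected nuclear protein-coding genes. Gpx1 stands apart near 377, 7 enzymes lie between 52.98 and 127.21, and Foxo3 and Sod2 lie lowest, with every gene above the dotted line.

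Foxo3 (ENSMUSG00000048756.7) lies on the minus strand of chromosome 10, from 42181841 to 42276755 in mm10. It had 21.07 and 20.55 TPM in replicates 1 and 2, from 4503 and 4180 expected counts, a mean of 20.8 ± 0.368 (SD, n = 2). The libraries were close, and Foxo3 ranked 2141 and 2258 among nuclear protein-coding genes in them. Nearly all of its reads were assigned to the full-length transcript Foxo3-203, which held 95.6% ± 0.163 of the gene's TPM and 99.2% of its counts. The rest went to Foxo3-202 (4.39% ± 0.163), which ends in a different last exon, and the other 3 annotated transcripts had no count.

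Foxo3 was the leading FOXO gene. Foxo4, a related factor under the same kinase control, had 5.57 and 6.71 TPM, while Foxo1 and Foxo6 had no read in either library. A count of 3, the approximate upper 95% limit for an observed 0, would give Foxo1 0.0106 and 0.0112 TPM in replicates 1 and 2, counting error only. Foxo3 held 79.1% and 75.4% of the summed TPM of the family, a mean of 77.2% ± 2.62 (SD, n = 2).

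Of 13 genes that control FOXO3, 12 reached a TPM of 1 in both libraries, with a median of 22.6 in replicate 1 and 23.56 in replicate 2. The adaptor protein genes Ywhae (294 ± 13.3) and Ywhaz (152 ± 5.19), whose products bind phosphorylated FOXO3 and keep it in the cytoplasm, were highest, followed by the kinase gene Stk4 (55.7 ± 3.02; SD, n = 2). The kinase gene Akt1 had 51.4 and 52.41 TPM, and Akt2 had 23.51 and 24.98. Among 12 known FOXO target genes 10 reached a TPM of 1, with a median of 6.59 and 7.51. The mitophagy receptor gene Bnip3 (82.1 ± 3.71), the transcription cofactor gene Cited2 (34.1 ± 2.52) and the kinase subunit gene Pik3r1 (23.8 ± 1.87) led, and Bcl6 and Sesn3 had no read. FOXO3 activity was not measured and the series has 1 group, so these levels were not tested against it.

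Gpx1, the glutathione peroxidase of cytosol and mitochondria (ENSMUSG00000063856), lies on chromosome 9 from 108338903 to 108340343, plus strand. It had the highest level of the 10 genes, with 376.99 and 377.37 TPM in replicates 1 and 2, a mean of 377 ± 0.269 from 10251 and 9539 counts. The libraries were nearly equal, and the gene ranked 65 among nuclear protein-coding genes in each. It held 37.5% and 37.4% of the summed TPM of the 9 enzymes.

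Gpx1 reads were divided mainly between a pair of transcripts. Gpx1-201, whose coding sequence of 201 codons holds the TGA shown above, had 259.75 and 245.08 TPM, or 66.9% ± 2.80 of the gene. Gpx1-204 had 114.32 and 125.89 TPM, or 31.8% ± 2.15. It carries the TGA in an exon, but its annotated coding sequence starts downstream of that codon. By expected counts, without the division by length, Gpx1-204 held 19.6% in replicate 1 and 21.9% in replicate 2. The retained-intron transcript Gpx1-203 held 1.24% ± 0.658, and Gpx1-202 had no count.

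Gpx4, which reduces oxidized membrane lipids and protects cells from ferroptosis (ENSMUSG00000075706), lies on chromosome 10 from 80047166 to 80056439, plus strand. It had 55.85 and 54.53 TPM in replicates 1 and 2, a mean of 55.2 ± 0.933 from 1271 and 1224 counts. Gpx4 stood at 0.148 of Gpx1 and 0.144 in replicates 1 and 2, a mean ratio of 0.146 ± 0.00258. Both are thus present in every library, with Gpx1 several times higher per length.

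The Gpx4 transcripts differ in where they start. Gpx4-202, which starts upstream and encodes the form of 197 codons, had 31.66 and 35.28 TPM, or 60.7% ± 5.68 of the gene. Gpx4-201, which starts inside the first intron of Gpx4-202, had no count in either library, with upper credibility bounds of 0.600 and 0.479 TPM. Gpx4-205, a transcript without a coding sequence that begins at nearly the same position, held 20.4% ± 3.13, and Gpx4-207 18.3% ± 2.10. Reads from exons that these transcripts share are divided by the authors' estimate, so low shares are uncertain.

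The regions before the starts of Gpx4-202 and Gpx4-201 are shown because the estimates of these transcripts differ. The sequences are from the RefSeq promoter table (GRCm38.p6), plus strand of chromosome 10. The capitals mark the 30 bases from the more upstream of the GENCODE M21 and RefSeq starts. For Gpx4-202 this is the GENCODE start, 80053488, with the RefSeq start at 80053565. In the Gpx4-201 line it is the RefSeq start, 80054011. The GENCODE start of Gpx4-201 is 80054037, so most capitals in that line lie upstream of this transcript. The first covers chr10:80053315-80053517, and the second chr10:80053761-80054040.
Gpx4-202 start: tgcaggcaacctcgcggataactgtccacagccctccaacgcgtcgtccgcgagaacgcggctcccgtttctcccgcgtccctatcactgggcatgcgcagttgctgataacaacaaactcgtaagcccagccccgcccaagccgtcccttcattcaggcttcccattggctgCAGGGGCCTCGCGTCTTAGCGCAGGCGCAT
Gpx4-201 start: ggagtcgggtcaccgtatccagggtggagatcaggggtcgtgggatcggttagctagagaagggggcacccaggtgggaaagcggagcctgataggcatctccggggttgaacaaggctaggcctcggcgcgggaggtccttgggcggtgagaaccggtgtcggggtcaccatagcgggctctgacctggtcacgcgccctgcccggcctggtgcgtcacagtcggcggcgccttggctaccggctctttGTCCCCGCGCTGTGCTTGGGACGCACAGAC

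RNA of the genes listed for selenoprotein synthesis was present throughout. All 8 listed genes reached a TPM of 1 in both libraries, with a median of 6.91 in replicate 1 and 6.77 in replicate 2. The selenophosphate synthetase gene Sephs2 (15.58 and 19.82 TPM), its relative Sephs1 (12.5 ± 1.56) and Sepsecs (7.87 ± 0.912), which makes selenocysteine on its tRNA, led, and the selenocysteine lyase gene Scly (2.55 ± 0.304) was lowest (SD, n = 2).

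Peroxiredoxins reduce peroxides through a reactive cysteine. Prdx3, the mitochondrial form (ENSMUSG00000024997, chromosome 19, 60864051 to 60874556, minus strand), was the highest of them. It had 127.21 and 125.53 TPM in replicates 1 and 2, a mean of 126 ± 1.19 from 5701 and 5332 counts, all on its single annotated transcript.

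Prdx2, a cytosolic form known as one of the most abundant proteins of the red cell (ENSMUSG00000005161, chromosome 8, 84969587 to 84974834, plus strand), had 69.45 and 74.35 TPM, a mean of 71.9 ± 3.46. Prdx1, its cytosolic relative (ENSMUSG00000028691, chromosome 4, 116685544 to 116700822, plus strand), had 59.52 and 52.98 TPM, a mean of 56.3 ± 4.62. Prdx2 was the higher in both libraries, at 1.17 times Prdx1 in replicate 1 and 1.40 times in replicate 2, a mean of 1.29 ± 0.167. The libraries moved in opposite directions for this pair, and the ratio was 1.74 on expected counts.

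The transcripts of both genes were mixed. Of Prdx2, Prdx2-201 held 47.3% and 36.68% of TPM in replicates 1 and 2, and Prdx2-208, which has the same annotated coding sequence but lacks the separate first exon, 24.42% and 35.57%. The gap between them was thus wide in replicate 1 and narrow in replicate 2. Retained-intron transcripts held 16.4% ± 0.163 of Prdx2 and 17.1% ± 0.622 of Prdx1. Prdx1-201, whose annotation stops inside the last coding exon, held 54.9% ± 3.23 of Prdx1 TPM, but Prdx1-204, of 2294 nt against 636 nt, held more of the expected counts (51.7% against 33.0%). By the deposited posterior means the Prdx1-201 share was 46.8%, outside that spread.

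Prdx6, which reduces lipid peroxides and also acts as a phospholipase (ENSMUSG00000026701, chromosome 1, 161240112 to 161251219, minus strand), had 110.91 and 115.82 TPM in replicates 1 and 2, a mean of 113 ± 3.47 from 5105 and 4943 counts. The libraries differed little at the gene level. Its transcripts set it apart from Gpx1, Gpx4, Prdx1 and Prdx2, for which annotated coding transcripts held 79.0% or more of TPM on average. Foxo3, Cat, Prdx3, Sod1 and Sod2 have only coding transcripts annotated, so their share of 100% is fixed by the annotation. Annotated coding transcripts held 24.14% and 25.98% of Prdx6 TPM in replicates 1 and 2, a mean of 25.1% ± 1.30 (SD, n = 2).

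The leading Prdx6 transcript by TPM in both libraries was Prdx6-208, annotated as a target of nonsense-mediated decay, the pathway that removes mRNAs with an early stop codon. It had 41.12 and 44.46 TPM, or 37.7% ± 0.933 of the gene. Prdx6-207, a processed transcript without a coding sequence, held 27.0% ± 2.22. The full coding transcript Prdx6-202 had 21.85 and 21.45 TPM, or 19.1% ± 0.834. Prdx6-208 had 1593.14 and 1631.97 expected counts, against 1633.97 and 1522.13 for the longer Prdx6-202, so their order by counts differed between the libraries. The retained-intron transcript Prdx6-209 held 9.73% ± 0.700 of TPM.

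Prdx6-208 joins exon 1 directly to the third exon of Prdx6-202 and so leaves out an exon of 157 nt (chromosome 1, 161247257 to 161247413). That length is not a multiple of a codon, and the coding sequence ends after 76 codons, against 224 in Prdx6-202. The joins are shown because they change the reading frame. Prdx6-206, a processed transcript without counts, also lacks this exon. The sequences are from GENCODE M21 on GRCm38, 5′ to 3′ on the minus strand, with the bases after exon 1 in capitals. The Prdx6-208 stretch runs to its stop codon, the last 3 letters. The first spans chr1:161247384-161251051 and the second chr1:161244207-161251051, introns left out.
Prdx6-202: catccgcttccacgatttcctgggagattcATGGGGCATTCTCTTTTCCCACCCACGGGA
Prdx6-208: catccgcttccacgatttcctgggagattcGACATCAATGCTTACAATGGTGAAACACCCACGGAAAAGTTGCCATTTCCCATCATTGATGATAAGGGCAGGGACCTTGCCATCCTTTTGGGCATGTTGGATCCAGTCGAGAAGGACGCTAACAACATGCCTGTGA

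These transcripts also differ at the other end. The last exon of Prdx6-202 has 1738 nt and that of Prdx6-208 835 nt. The tables hold no counts of reads across joins, so exon skipping and a shorter end cannot be told apart in the estimates.

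**Figure D2:**
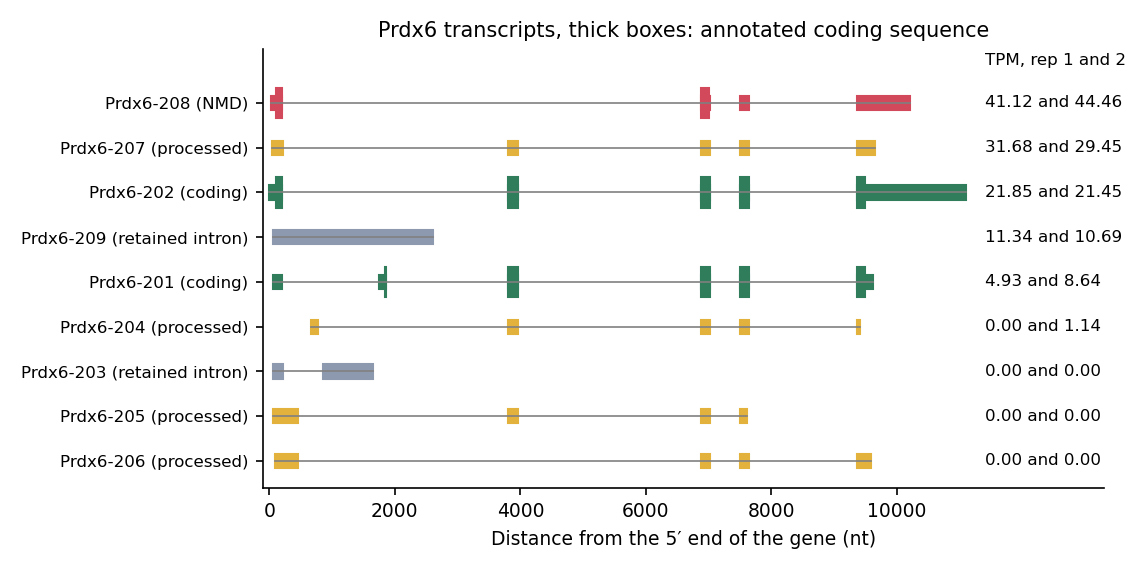
Annotated Prdx6 transcripts drawn to scale by distance in nt from the 5′ end of the gene, ordered by mean share of TPM, with the TPM of each in replicate 1 and replicate 2 at the right. Thick boxes are annotated coding sequence, thin boxes other exon sequence and lines introns, and colours give the annotated class. Prdx6-208 leads at 41.12 and 44.46 TPM and lacks the second exon of Prdx6-202.

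**Figure D3:**
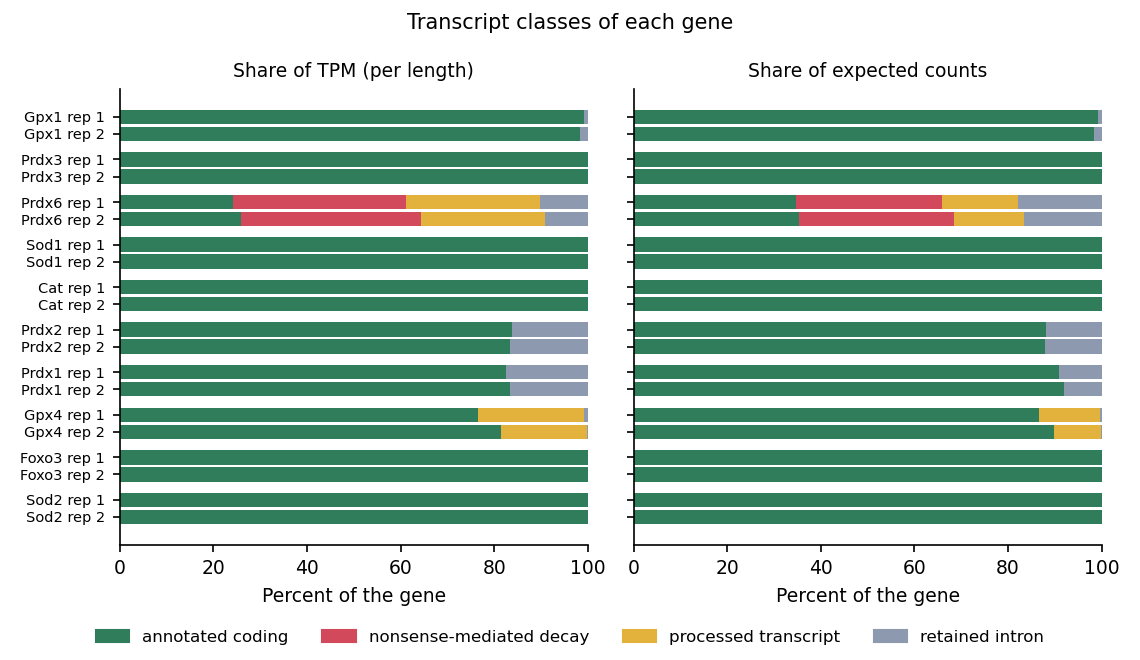
Share of each gene held by annotated coding, nonsense-mediated decay, processed and retained-intron transcripts, in percent of TPM (left) and of expected counts (right), with 1 bar per gene and replicate. Prdx6 is the gene with the smallest coding share, 24.14% and 25.98% of TPM and 34.7% and 35.4% of expected counts. Foxo3, Cat, Prdx3, Sod1 and Sod2 have only coding transcripts annotated, so their share is fixed at 100%.

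Catalase, which breaks down hydrogen peroxide without a reducing partner, is encoded by Cat (ENSMUSG00000027187, chromosome 2, 103453849 to 103485160, minus strand). Cat had 88.4 and 80.58 TPM in replicates 1 and 2, a mean of 84.5 ± 5.53 from 6389 and 5469 counts, so it was lower in replicate 2. It stood at 0.143 and 0.130 of the summed TPM of Gpx1, Prdx1, Prdx2 and Prdx6, a mean of 0.137 ± 0.00951, and at 0.309 on expected counts. Cat-201 held 82.9% ± 0.870 of its TPM. The short Cat-202, which lacks several middle exons, held 17.1% ± 0.870 of TPM but 5.17% of counts.

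Sod1, the cytosolic copper-zinc superoxide dismutase (ENSMUSG00000022982, chromosome 16, 90220754 to 90226329, plus strand), had 101.1 and 111.99 TPM in replicates 1 and 2, a mean of 107 ± 7.70. Sod2, the mitochondrial manganese form (ENSMUSG00000006818, chromosome 17, 13006846 to 13040063, plus strand), had 14.82 and 15.35 TPM, a mean of 15.1 ± 0.375, the lowest of the 10 genes. The ratio of Sod1 to Sod2 was 6.82 and 7.30 in the libraries, a mean of 7.06 ± 0.335.

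That gap rests on length. Both genes had similar expected counts, 1756.81 and 1836.41 for Sod1 and 1811 and 1781 for Sod2, a ratio of 1.00. The single Sod2 transcript of the tables has 3824 nt and that of Sod1 646 nt, and GENCODE M21 lists the Sod2 transcript at 5861 nt and the Sod1 transcript at 641 nt. The mitochondrial Prdx3 and Sod2 stood far apart per length, second and last in the order. Prdx3 also had more expected counts than Sod2, 5701 and 5332 in replicates 1 and 2.

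The libraries agreed closely on these genes. With 0.1 added to each TPM, the log2 ratio of replicate 2 to replicate 1 ran from -0.17 for Prdx1 to 0.15 for Sod1, with 5 genes higher in replicate 2 and 5 higher in replicate 1. None of the 10 was 2-fold or more apart, against 1.95% of 8808 nuclear protein-coding genes whose mean TPM was at least 1. The median size of the log2 ratio was 0.06 for the 10 genes and 0.10 over the 2981 genes within their range of mean TPM.

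The deposited credibility intervals of the libraries overlapped for 8 of the 10 genes. Those of Cat (83.4 to 89.5 in replicate 1 and 75.5 to 81.8 in replicate 2) and of Sod1 (94.2 to 103.5 and 104.1 to 114.0) did not. Intervals failed to overlap for 24.5% of the 8808 genes, and for 28.7% of the 2981 genes within the range of mean TPM, so 2 of 10 is near the background. Counting error alone came to between 0.988% and 2.86% of a gene's count, while the SD of TPM between libraries ran from 0.0712% of the mean for Gpx1 to 8.22% for Prdx1.

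**Figure D4:**
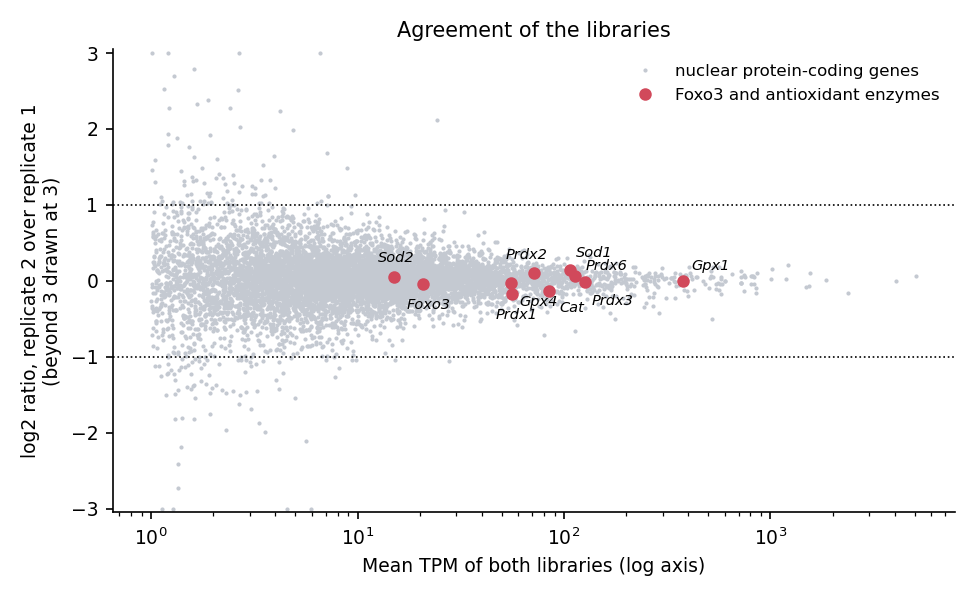
Log2 ratio of TPM + 0.1, replicate 2 over replicate 1, against mean TPM on a log axis for 8808 nuclear protein-coding genes (grey) and the 10 genes described (red, named). Dotted lines mark a 2-fold difference, and the 10 genes lie between -0.17 and 0.15.

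In GENCODE M21, 6 of the 10 genes match other genes at 90% identity or more over 300 nt or more. These matches, called copies here, are 12 in all, of which 9 are in the tables. The copies took 9 and 3 counts for Sod2, all on Rps6ka2, 5.22 and 9.33 counts for Prdx1, 3.07 and 5.18 for Prdx2, and 6.19 and 7.59 for Sod1. Rps6ka2 is a separate protein-coding gene that shares a stretch of 3110 nt at 98.3%, and its counts are those of the whole gene. The counts on copies amount to at most 0.630% of the count of the gene they match in any library. They are what the authors' estimate placed on the copies after any division of ambiguous reads. How many reads from a copy went to the gene it matches was not measured. Prdx1, Prdx2 and Sod1 were also the 3 genes whose expected counts were not whole numbers. The other 3 copies were not analysed here, so their part in the counts of Gpx4 and Sod2 is unknown. For Gpx4 they are the pseudogenes Gpx4-ps2, which matches at 99.7% over 762 nt, and another that matches at 95.1% over 535 nt. For Sod2 it is a long non-coding RNA gene on chromosome 17 that matches at 98.5% over 3108 nt. On the opposite strand, Sod1 overlaps Scaf4 over 650 bases, and Prdx2 overlaps Rnaseh2a over 181 and Junb over 351. How the authors' counting used strand is not given in the sources used here, so the levels of Sod1 and Prdx2 are uncertain by the reads in those overlaps.

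Most other peroxidase and dismutase genes had no read. Of 11 such genes 3 reached a TPM of 1, and 7 had no read, among them Gpx2. Prdx4, the peroxiredoxin of the endoplasmic reticulum, had 16.15 and 16.35 TPM, Prdx5 16.12 and 15.62, and Ccs, the chaperone that loads copper into SOD1, 5.53 and 4.71. Each of these 3 lay below all of the peroxiredoxins in the set of 10.

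The thioredoxin and glutaredoxin system reduces oxidized peroxiredoxins and other oxidized protein thiols, and its genes were broadly present. The list also holds genes with other roles, such as Txnip and Glrx5. In both libraries 12 of the 13 reached a TPM of 1, with a median of 23.51 in replicate 1 and 27.14 in replicate 2. The mitochondrial Glrx5, needed for iron-sulfur clusters, had 90.6 ± 6.09, the thioredoxin inhibitor gene Txnip 73.6 ± 0.622 and the mitochondrial thioredoxin gene Txn2 60.8 ± 10.9, while the reductase gene Txnrd3 was lowest at 0.795 ± 0.0495 (SD, n = 2). Srxn1, whose product restores overoxidized peroxiredoxins, had 2.22 and 1.04 TPM from 83 and 88 counts. It was named after its values were seen, as the 1 gene of this list 2-fold or more apart, and its counts were nearly equal.

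Of 15 genes of glutathione synthesis and recycling 9 reached a TPM of 1 in both libraries, with a median of 3.01 and 3.66. Gclm, the modifier subunit of the enzyme that starts glutathione synthesis, had 73.8 ± 4.58, the glutathione reductase gene Gsr 34.1 ± 5.20 and the pentose phosphate gene Pgd 27.6 ± 5.09, and Chac1 had no read. Of 11 genes around NRF2 and BACH1, opposing regulators of antioxidant genes, 9 reached a TPM of 1, with a median of 4.02 and 4.09. Nfe2l2, which encodes NRF2, had 30.5 ± 0.247, Hmox2 12.3 ± 1.17 and Nfe2l1 11.6 ± 2.31, and Bach2 had 0 and 2 counts. Of 9 genes that produce superoxide or peroxide 3 reached a TPM of 1, among them the oxidase subunit genes Cyba (13.6 ± 1.01) and Ncf1 (2.51 ± 0.0141), while Duox1 had no read (SD, n = 2).

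**Figure D5:**
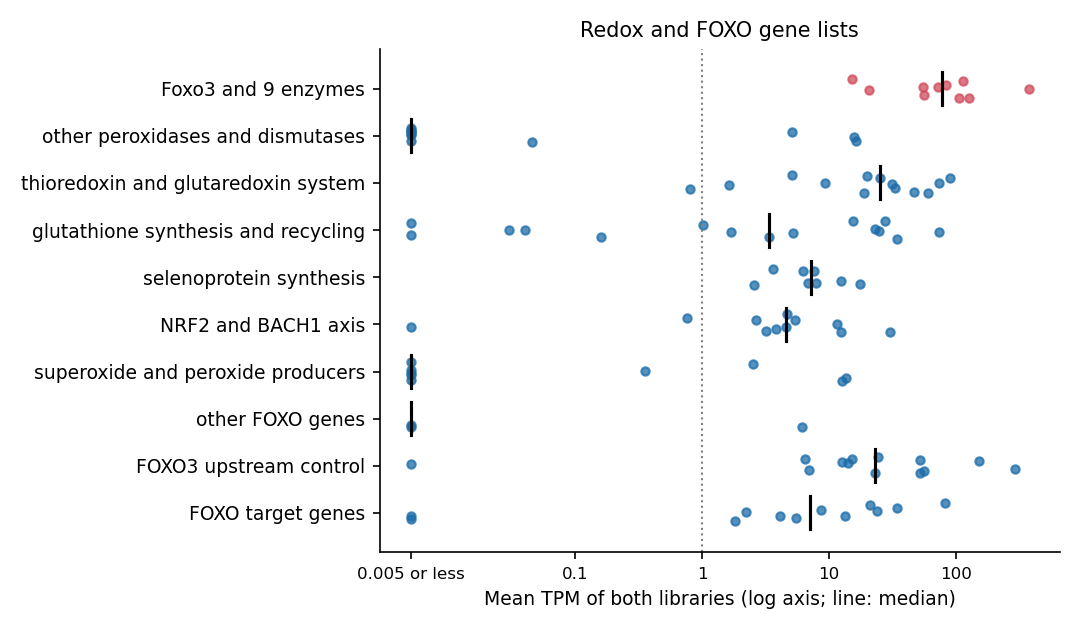
Mean TPM of both libraries on a log axis for Foxo3 and the 9 enzymes (red) and for 9 further lists (blue), 1 point per gene, with values of 0.005 or less drawn at 0.005. Black lines are medians, the dotted line marks a TPM of 1, and points are spread vertically for legibility only. The 10 genes lie at 15.1 or higher, while 2 of the 3 other FOXO genes and 7 of the 11 other peroxidases and dismutases have no read.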

How the data were processed

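Total RNA of 1 group was measured in 2 libraries, biological replicates 1 and 2 per the labels. Whether they came from separate cultures is not stated further. Reads were placed on mm10, per the labels, with GENCODE M4 genes, per documentation deposited beside the tables. The aligner is not given in the sources used here, nor is the version of the quantifier. Both the expected counts and TPM values were deposited by the authors, with posterior means and credibility intervals whose level is not stated. The authors also deposited, in percent, how much of a gene's TPM each transcript holds.

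From these, genes and transcripts were named through GENCODE M21 by identifier without version, and 42 of the 44 transcripts kept their length. Means, SDs, ratios within a library and log2 ratios (pseudocount 0.1) were computed in Python 3.11.15, pandas 2.3.3 and numpy 2.4.6. TMM scaling (edgeR 4.0.16, R 4.3.3, expected counts rounded to whole numbers) served as an alternative. Copies were found with BLAST+ 2.17.0, a step added after the data were seen. Members and lists were chosen with earlier results of these data known. Named were all 10 genes, up to 3 highest and the lowest of each further list, and the leading transcripts. Other genes and transcripts, such as Akt1, Akt2, Sesn3 and Srxn1, were named after their values were seen. Some results that the rule names are left out and not reported here. No molecular identifiers are stated, so intervals and floors cover counting error only.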

Additional observations from a re-analysis of the deposited data

How the results depend on the processing

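All 10 genes reached the detection threshold, and none was 2-fold or more apart, under every alternative run for those counts (TPM thresholds of 0.5 and 5, a fold of 1.5, other pseudocounts, posterior means, TMM-scaled counts, each library alone for detection). Expected counts, not divided by length, moved each ratio beyond its spread. Sod1 over Sod2 went to 1.00, Gpx4 over Gpx1 to 0.126 and Prdx2 over Prdx1 to 1.74. Cat over summed Gpx1, Prdx1, Prdx2 and Prdx6 went to 0.309, and the Foxo3 share of its family to 92.0%. Each library alone gave 6.82 to 7.30 for the first, 0.144 to 0.148 for the second, 1.17 to 1.40 for the third, 0.130 to 0.143 for the fourth and 75.4% to 79.1% for the last. Posterior means kept all 5 ratios within 1 SD. Rescaling TPM to nuclear protein-coding genes raised all 10 mean levels beyond 1 SD, by construction. Posterior means moved 2 of 10 mean levels by more than that. The leading transcript share could not move for the 3 genes with 1 transcript. Of the shares of the other 7 genes, posterior means moved 2 and counts moved 6. No paired analysis was possible because the series has 1 group. With 2 libraries and no contrast, the spread is known only roughly.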
